A study of Mus musculus with 4 samples.

Results

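Summits of dimeric p53 and of PPAR-alpha were listed around 10 genes grouped under fatty acid entry and mitochondrial oxidation. They were Cpt1a, Cpt2, Crat, Slc25a20, Slc27a1, Ucp2, Mlycd, Acadm, Acadvl and Acadl. The genes were taken by name from the 21887 protein-coding genes of the RefSeq table for the mouse assembly GRCm38, and all 10 were found. Each summit inside a gene or within 20 kb of either end was kept. Chromatin immunoprecipitation with sequencing (ChIP-seq) had been done on thymus of 4-week-old mice. All libraries shared the homozygous genotype p53 AD/AD, a germline change that leaves p53 as a dimer and not its usual tetramer, so no group with unaltered p53 can be set beside them. The samples were 2 p53 libraries and 1 input library read at 50 nt, and 1 PPAR-alpha library read at 75 nt. The labels do not say whether the p53 libraries came from separate mice or whether mice were pooled, and the spread between them may be technical. No test over samples was run on these 2 libraries and 1, and antibody and read length cannot be told apart.

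Long-chain fatty acids are taken up and joined to coenzyme A by transport proteins such as that of Slc27a1. They cross into the mitochondrion as carnitine esters, in a relay of CPT1 on the outer membrane, the carrier made by Slc25a20, and CPT2 on the inner membrane, after which acyl-CoA dehydrogenases take the first step of each round of beta-oxidation. Malonyl-CoA, the building block of fatty acid synthesis, blocks CPT1, and the enzyme made by Mlycd removes it. PPAR-alpha is a nuclear receptor that is activated by fatty acids and is best known for switching on such genes in liver, heart and other tissues that burn fat.

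The deposited lists give 1 base of highest pile-up per called peak, with a score taken here for a −log10 p or q. There were 3608 summits in the list of p53 replicate 1, 4767 in that of replicate 2 and 4070 in that of PPAR-alpha, and the read depth behind them is not given in the sources used here. All 10 thymocyte marker genes, among them Cd3e, Cd4, Cd8a and Rag1, had a summit inside or within 20 kb in every list. Over all protein-coding genes the shares were 20.8% in p53 replicate 1, 25.7% in replicate 2 and 20.4% in PPAR-alpha. The 10 were not separate places, since Cd3d, Cd3e and Cd3g shared summits, as did Rag1 and Rag2. At Ptcra, Cd3e and Rag2 the highest summit of each list was nearest to another gene. In some lists this was also so at Cd3d, Cd3g, Cd4, Cd8a and Rag1. At Cd8b1 and Lck the highest summit of each list was nearest to the marker itself. None of 5 hepatocyte markers, Alb and Apoa1 among them, had a summit inside or within 20 kb in any list. Each list had one for 2 of 5 adipocyte markers, but not always the same 2. They were Adipoq and Fabp4 in p53 replicate 1 and PPAR-alpha, and Adipoq and Cfd in p53 replicate 2. The highest Adipoq summits lay 17061 to 17102 bp from the gene.

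The upstream sequences of 5 start sites are shown, those of 4 members discussed below and that of Pgls, before which all 3 lists had a summit. Each is the 250 bases before a RefSeq start site, read 5′ to 3′ on the strand of the gene in GRCm38.p6. Capitals mark matches on either strand to any of 7 motifs. These were the PPAR half-site AGGTCA, the PPAR element (a direct repeat of that half-site with a single base between), the p53 half-site, the ETS core CCGGAA, the GC box GGGCGG, the NRF1 site and the CCAAT box CCAAT. Every PPAR element also holds 2 half-sites, so these motifs overlap, and the p53 half-site reads the same on both strands and was counted once per place. Pgls, the last shown, is the neighbour of Slc27a1.
Cpt1a, chr19:3323051-3323300, forward strand: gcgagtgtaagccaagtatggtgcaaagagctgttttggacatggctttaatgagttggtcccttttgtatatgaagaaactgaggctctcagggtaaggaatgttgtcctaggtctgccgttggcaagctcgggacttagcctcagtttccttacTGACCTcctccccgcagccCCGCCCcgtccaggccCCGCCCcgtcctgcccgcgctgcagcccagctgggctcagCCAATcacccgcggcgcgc
Slc27a1, chr8:71570344-71570593, forward strand: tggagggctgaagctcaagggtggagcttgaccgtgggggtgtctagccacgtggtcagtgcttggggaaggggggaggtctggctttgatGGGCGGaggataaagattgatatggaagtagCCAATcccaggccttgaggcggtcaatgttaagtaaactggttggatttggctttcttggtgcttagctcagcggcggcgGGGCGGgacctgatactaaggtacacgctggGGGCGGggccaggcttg
Ucp2, chr7:100493108-100493357, forward strand: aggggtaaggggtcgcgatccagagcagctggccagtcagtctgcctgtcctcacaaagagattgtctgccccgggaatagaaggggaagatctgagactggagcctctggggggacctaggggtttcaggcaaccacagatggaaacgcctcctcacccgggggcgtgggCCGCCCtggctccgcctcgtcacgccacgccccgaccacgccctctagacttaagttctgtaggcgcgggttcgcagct
Acadvl, chr11:70015429-70015678, reverse strand: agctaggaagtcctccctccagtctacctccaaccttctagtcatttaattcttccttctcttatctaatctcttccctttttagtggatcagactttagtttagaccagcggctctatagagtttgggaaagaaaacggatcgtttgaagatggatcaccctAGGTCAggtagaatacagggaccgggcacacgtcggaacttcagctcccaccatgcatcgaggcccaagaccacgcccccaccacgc
Pgls, chr8:71591934-71592183, forward strand: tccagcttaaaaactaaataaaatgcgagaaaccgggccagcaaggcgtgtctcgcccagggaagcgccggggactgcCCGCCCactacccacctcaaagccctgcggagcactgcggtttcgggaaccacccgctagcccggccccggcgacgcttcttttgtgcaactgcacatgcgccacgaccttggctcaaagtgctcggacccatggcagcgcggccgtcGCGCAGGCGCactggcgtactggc
The Slc27a1 sequence lies before the third of its 3 annotated start sites. In the Cpt1a sequence TGACCT is the PPAR half-site on the opposite strand, 94 bases before the start site.

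Promoter windows of 300 bases, which add 50 bases from the start site on, were searched for 9 of the 10 members, with 11 windows because Slc27a1 has 3. Crat had no entry. The PPAR half-site was found at Cpt1a, Acadm and Acadvl, and 16.3% of all 32851 promoter windows hold it. No member window held the PPAR element, which 0.0396% of all windows hold. The p53 half-site occurred in 2 windows, before the first and the second start site of Slc27a1, against 8.36% of all windows. GC boxes were present in 7 of the 11 windows against 35.7% of all, and the CCAAT box in 4 against 37.4%. The median share of G and C was 62.3% in the member windows and 52.7% in all. The ETS core was found in 3, those of Cpt2, Slc25a20 and Mlycd, against 14.9% of all, and the NRF1 site in none, against 4.60%. These matches describe letters only. No summit of any list fell inside a member's own 300-base window. The share of all promoter windows that hold a summit was not computed, so this count has no comparison. Among neighbours, all 3 lists had a summit inside the window of Pgls, 2 lists inside that of Gabarap, and 1 at Arih2 and Czib. The windows of Dolpp1, Dnajb13, Dlg4, Kansl1l, Rabggtb and Gm32006 had none.

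In total the 10 gene windows held 36 summits, 11 from p53 replicate 1, 15 from p53 replicate 2 and 10 from PPAR-alpha. Only 10 of the 36 lay inside a member, and for 24 another protein-coding gene was nearer than the member. Within 1 kb of an annotated start site of another gene lay 17, against 5 within 1 kb of a start site of the member itself. A window can hold the starts of several neighbours, and the same counts were not made for the windows of all genes. They therefore give no comparison between members and neighbours. Crat has no listed start, so no summit in its window could count for the member. These counts were not divided by the number of listed starts on each side. A member was the nearest gene to the other 12 summits, at Cpt1a, Slc27a1, Ucp2, Crat, Acadm and Acadvl.

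**Figure D1:**
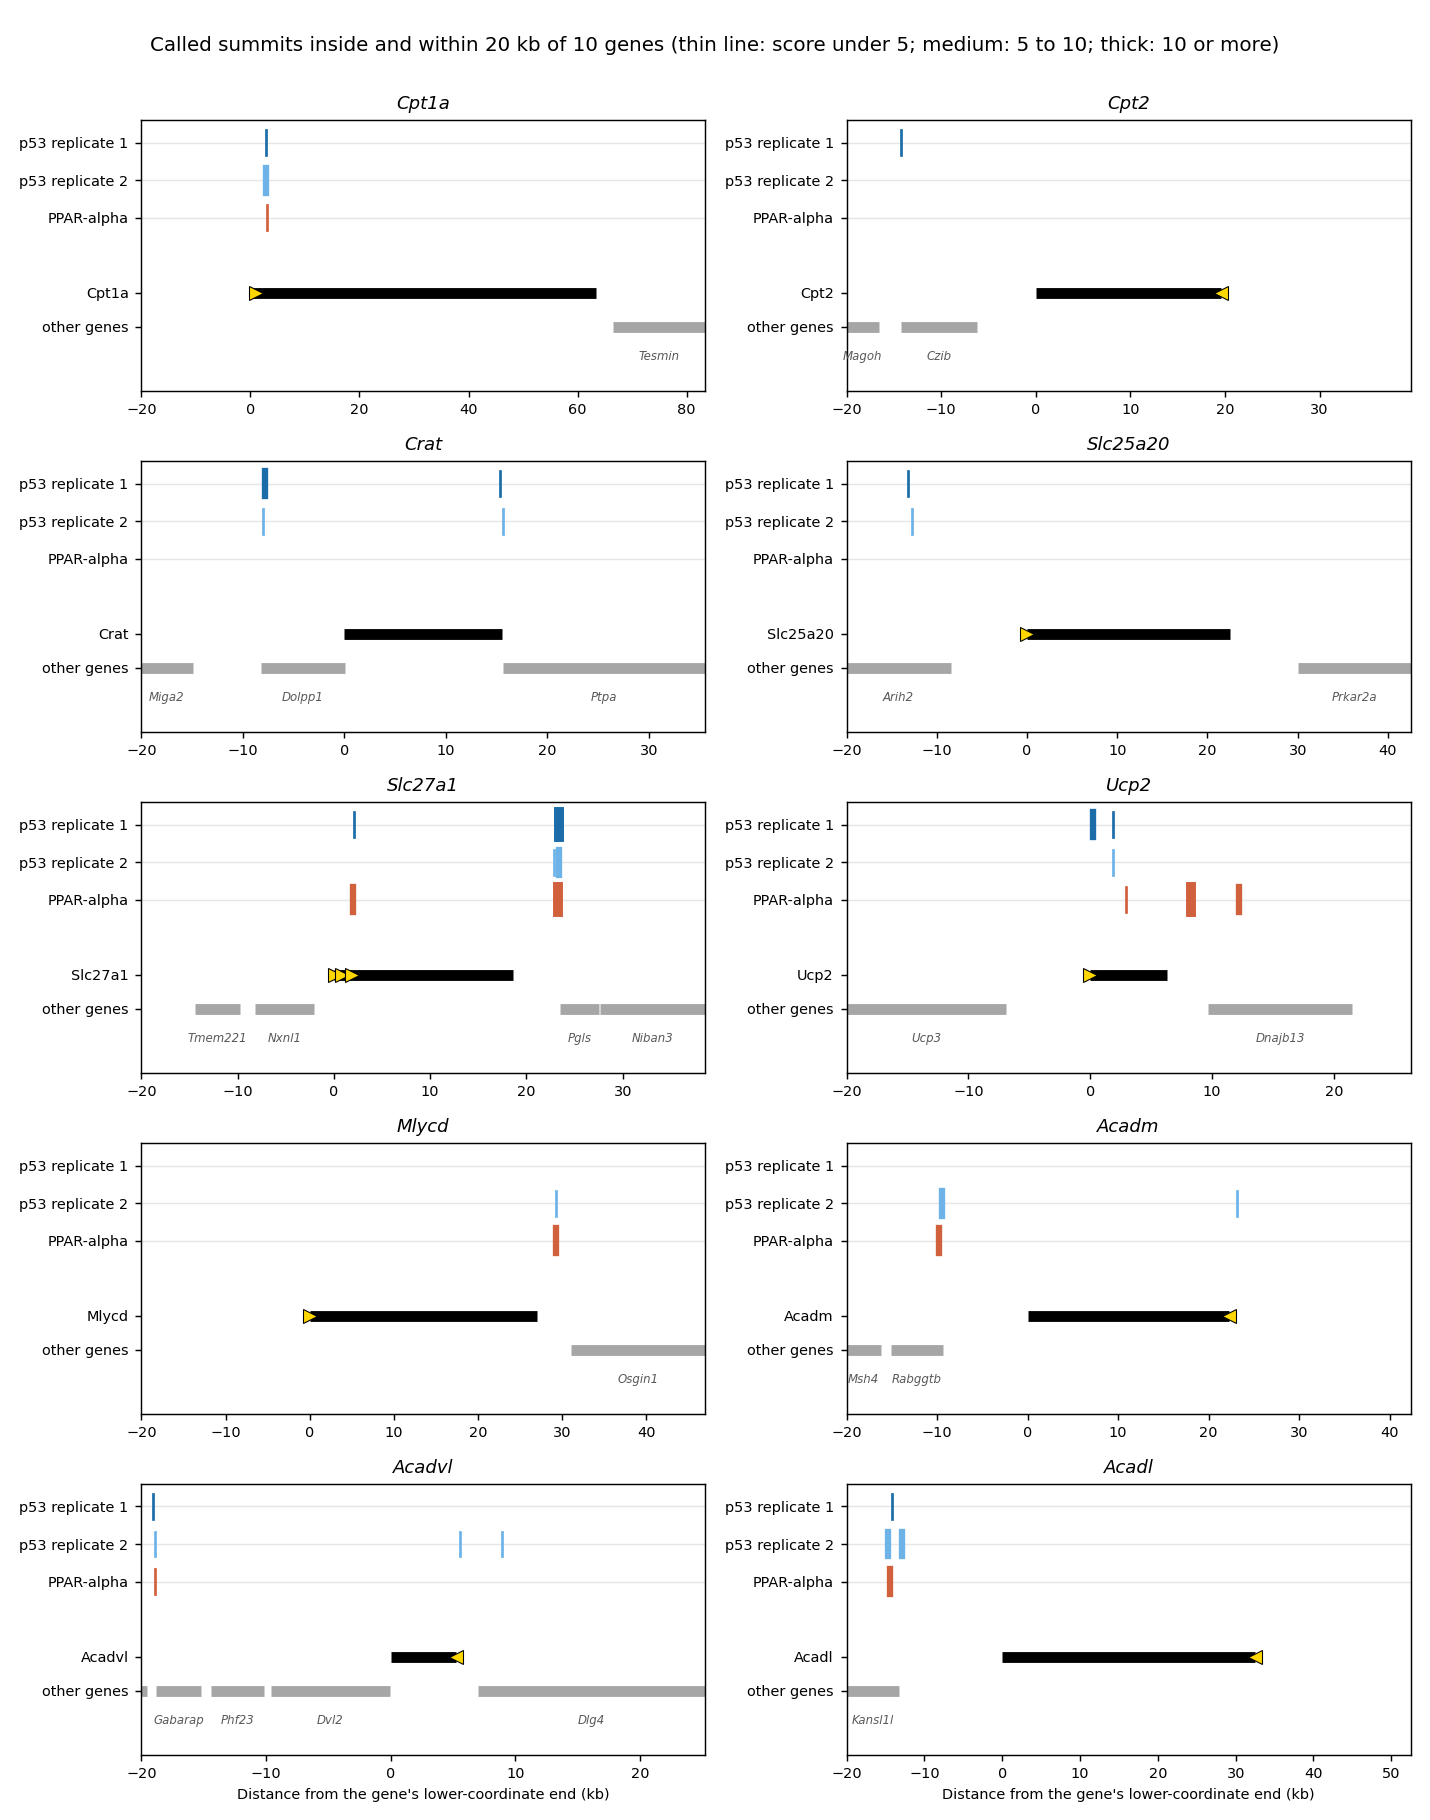
Maps of the 10 gene windows, with the distance from the lower-coordinate end of each gene in kb on the horizontal axis; vertical lines are summits of each list (thicker at scores of 5 and of 10), black bars the member, grey bars other protein-coding genes, and yellow arrowheads annotated start sites of the member, pointing in the direction of transcription (none is given for Crat). Of the 36 summits, 10 lie on black bars.

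Cpt1a encodes the liver form of carnitine palmitoyltransferase 1, the rate-limiting enzyme of fatty acid entry, and lies on chromosome 19 from 3322326 to 3385735 on the forward strand. It had 1 summit in each list and no other within 20 kb. The summits were at 3325222 in p53 replicate 1 (score 3.34), 3325156 in p53 replicate 2 (5.88) and 3325438 in PPAR-alpha (2.57). They lay 1921, 1855 and 2137 bp past the start site, inside the gene. The p53 summits were 66 bp apart, while the PPAR-alpha summit was 216 and 282 bp from them. Within its own list, the summit of p53 replicate 1 scored above 27.1% of the entries, that of replicate 2 above 81.9% and that of PPAR-alpha above 5.77%. The p53 replicates therefore marked the same place, with a low rank in replicate 1 and a middling to high one in replicate 2. The PPAR-alpha call was among the weakest of its list.

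Slc27a1, which encodes the fatty acid transport protein FATP1, lies on chromosome 8 from 71568728 to 71587307 on the forward strand. Its own summits followed the third start site. PPAR-alpha had a summit at 71570712 (score 7.20) and p53 replicate 1 at 71570839 (3.99), 118 and 245 bp past that site and 127 bp apart. No p53 replicate 2 summit lay inside the gene, and the nearest was 4310 bp beyond its end. A second group of summits stood between Slc27a1 and Pgls, which encodes 6-phosphogluconolactonase of the pentose phosphate pathway.

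This group held the highest p53 scores of all 10 windows. It lay at 71592146 in p53 replicate 1 (score 10.7), at 71592071 in p53 replicate 2 (9.40) and at 71592023 in PPAR-alpha (30.03). Lower scores were held by 94.6%, 94.8% and 96.7% of the summits of those lists. The summits were 4839, 4764 and 4716 bp from the end of Slc27a1, but 38, 113 and 161 bp before the start site of Pgls, within the Pgls sequence printed above. A further p53 replicate 2 summit at 71591617 scored 2.37 and lay 567 bp before that start site. Counted by the nearest gene, the sites of all 3 lists near Slc27a1 thus belong to Pgls, and Slc27a1 keeps a summit in p53 replicate 1 and PPAR-alpha.

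Ucp2, a carrier of the mitochondrial inner membrane, lies on chromosome 7 from 100493337 to 100499629 on the forward strand. It was the only member besides Cpt1a with a summit inside the gene in every list. In p53 replicate 1 summits stood at 100493538 (score 5.45) and 100495228 (3.99), 180 and 1870 bp past the start site. In p53 replicate 2 the summit at 100495170 (4.33) was 58 bp from the second of these, and no replicate 2 summit lay within 1 kb of the first. The PPAR-alpha summit inside the gene, at 100496257 (4.70), was 1029 bp from the closest p53 summit. The p53 replicates shared a site in Ucp2, and PPAR-alpha was called elsewhere in the gene.

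The highest score of the 10 windows was also beside Ucp2, in PPAR-alpha alone. It stood at 100501636 (score 37.1), where 97.6% of the list scored lower, 2007 bp past the end of Ucp2 and 1375 bp from the nearer end of Dnajb13, a heat shock protein family gene. The start sites of both genes were farther away, that of Ucp2 by 8278 bp. The closest p53 summits were 6408 bp away in replicate 1 and 6466 bp in replicate 2. The third PPAR-alpha summit, at 100505526 (6.55), lay inside Dnajb13. These 3 PPAR-alpha summits were the only summits of the 36 that fell among 3 or more of their list within 10 kb.

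**Figure D2:**
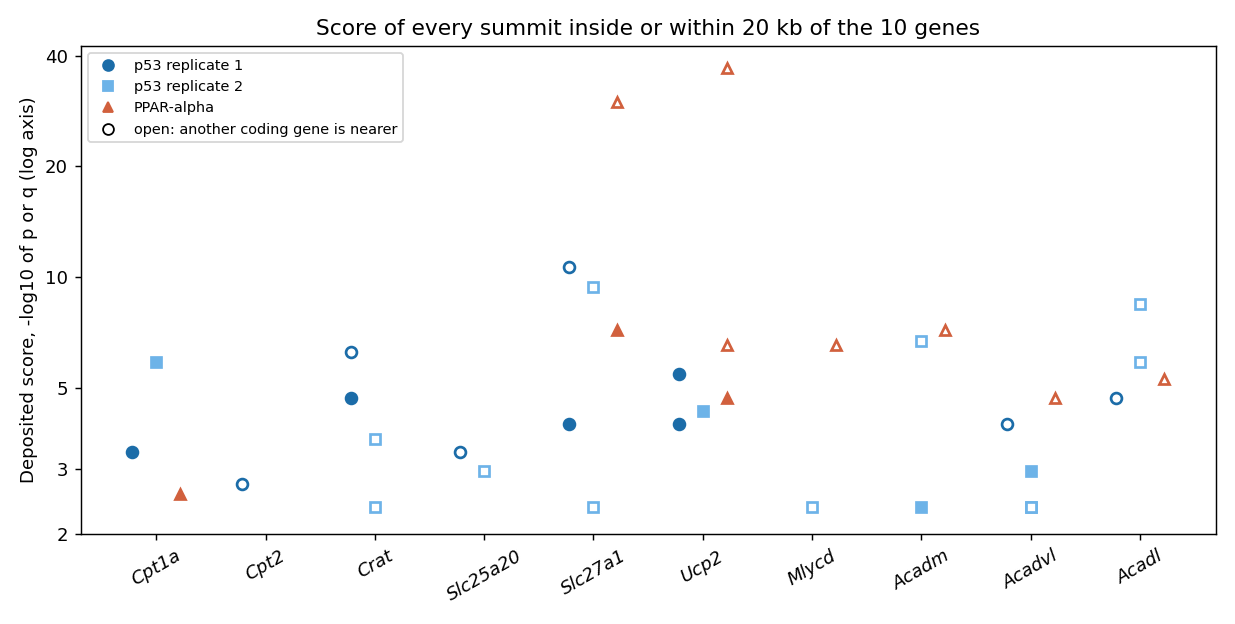
Deposited score (−log10 of p or q, log axis) of the 36 summits inside or within 20 kb of each gene, by library; open symbols are summits to which another protein-coding gene is nearer, and the 2 summits of p53 replicate 2 at Acadvl with a score of 2.37 lie on each other. Of the 36 scores, the 3 of 10 or more, 10.7 and 30.03 at Slc27a1 and 37.1 at Ucp2, are all open symbols.

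Crat encodes carnitine acetyltransferase, which moves acetyl groups between carnitine and coenzyme A. The gene lies on chromosome 2 from 30400476 to 30416017, with 32 bp between it and Ptpa, an activator gene of the phosphatase PP2A, which starts at 30416050. In p53 replicate 1 a summit at 30415826 (score 4.70) was inside Crat. In p53 replicate 2 the summit at 30416051 (3.62) was 34 bp beyond Crat and inside Ptpa, 225 bp from that of replicate 1. Both p53 lists thus had a call at the junction of the genes, which the summit position cannot assign to either of them. At the start of the other neighbour, Dolpp1, lay a pair of p53 summits at 30392655 in replicate 1 (6.24) and 30392506 in replicate 2 (2.37), 401 and 252 bp past its start site and 149 bp apart. PPAR-alpha had no summit near Crat, and its nearest lay 163291 bp away.

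Mlycd encodes malonyl-CoA decarboxylase, which lifts the block on CPT1, and lies on chromosome 8 from 119394852 to 119421838 on the forward strand. No list had a summit inside it or within 5 kb of its start site. Past its end, p53 replicate 2 had a summit at 119424124 (score 2.37) and PPAR-alpha at 119424165 (6.55), 41 bp apart. They lay 2286 and 2327 bp beyond Mlycd and 1758 and 1717 bp from Osgin1, the next coding gene. Both were inside the noncoding RNA gene Gm32006, 1240 and 1199 bp past a start site of it. The nearest summit of p53 replicate 1 was 136663 bp away, so the p53 call at this place came from 1 replicate.

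Slc25a20, the gene of the carnitine-acylcarnitine carrier, and Cpt2 had no summit inside or within 5 kb in any list. Slc25a20 lies on chromosome 9 from 108662136 to 108684642. The p53 summits in its window, at 108648953 in replicate 1 (score 3.34) and 108649434 in replicate 2 (2.97), were 13183 and 12702 bp before its start site. They were also 481 bp apart and stood at a start site of Arih2, a ubiquitin ligase gene, 455 bp past it and 26 bp before it. The nearest PPAR-alpha summit was 95309 bp from Slc25a20.

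Cpt2 lies on chromosome 4 from 107903982 to 107923589. Its single summit, in p53 replicate 1 at 107889745 (score 2.74), was 14237 bp away and 81 bp before a start site of Czib. In p53 replicate 2 the nearest was 24127 bp from Cpt2, just outside the window, and in PPAR-alpha 395210 bp. The outermost summits that the 20 kb limit kept were those at Gabarap in the Acadvl window, 18918 to 19071 bp away. Neither carnitine shuttle gene after CPT1 therefore had a call of its own.

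The 3 acyl-CoA dehydrogenase genes differed in what lay near them. Acadm, for the medium-chain enzyme, lies on chromosome 3 from 153922353 to 153944643 on the reverse strand. In p53 replicate 2 a summit at 153945452 (score 2.37) was 809 bp before its start site, and neither other list had a summit within 5 kb. A score of 2.37 was the lowest of the 36 and was held by 739 summits, 15.5% of that list. At the start of Rabggtb, a gene for Rab prenylation, p53 replicate 2 had a summit at 153912889 (6.72) and PPAR-alpha at 153912546 (7.20), 77 and 420 bp past its start site and 343 bp apart. These were 9464 and 9807 bp from Acadm. The nearest p53 replicate 1 summit lay 977087 bp from the gene.

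Acadvl, for the very-long-chain enzyme, lies on chromosome 11 from 70010183 to 70015428 on the reverse strand. A p53 replicate 2 summit at 70015789 (score 2.97) stood 361 bp before its start site, beyond the far end of the Acadvl sequence printed above. The other lists had none within 5 kb. Replicate 2 also had a summit at 70019092 (2.37), inside Dlg4, a synaptic scaffold gene. All 3 lists had a summit before the start site of Gabarap, an autophagy gene, by 258 bp in p53 replicate 1 (3.99), 110 bp in p53 replicate 2 (2.37) and 105 bp in PPAR-alpha (4.70). Those of p53 replicate 2 and PPAR-alpha, at 69991260 and 69991265, were 5 bp apart, the closest of any pair in the windows.

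Acadl, for the long-chain enzyme, lies on chromosome 1 from 66830839 to 66863309 on the reverse strand and had no summit within 5 kb in any list. Its window reached the start of Kansl1l. There the summits were at 66816628 in p53 replicate 1 (score 4.70), 66816203 and 66817907 in p53 replicate 2 (8.48 and 5.88) and 66816396 in PPAR-alpha (5.30). The 3 libraries lay within 425 bp of each other inside Kansl1l, 967 to 1392 bp past its start site, and at least 14211 bp from Acadl. Near their own starts the dehydrogenase genes had p53 replicate 2 calls alone, at Acadm and Acadvl, and none of PPAR-alpha.

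**Figure D3:**
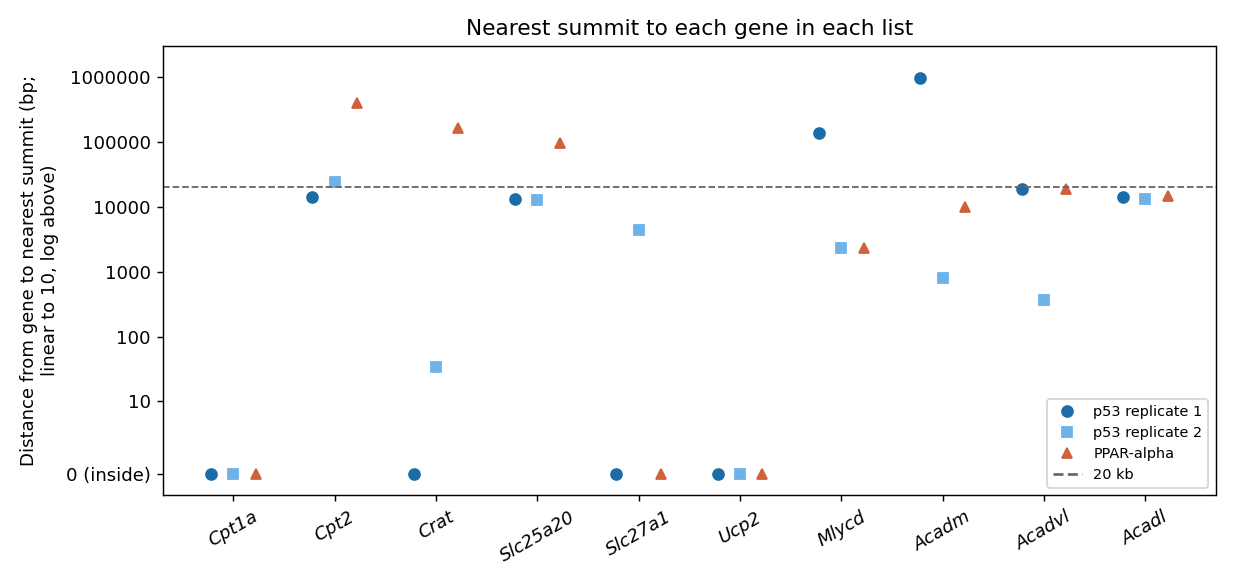
Distance from each gene to the nearest summit of each list in bp (0 is inside the gene; linear up to 10 bp and logarithmic above; dashed line, 20 kb). Cpt1a and Ucp2 have all 3 lists at 0, and the largest distance is 977087 bp, from Acadm to p53 replicate 1.

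By count, 8 of the 10 members had a p53 replicate 1 summit inside or within 20 kb, against 20.8% of all protein-coding genes. For p53 replicate 2 the count was 9, against 25.7%, and for PPAR-alpha 7, against 20.4%. Both p53 lists had a summit in 7 of the windows (14.4% of all genes), and all 3 lists in 5 (9.88%), those of Cpt1a, Slc27a1, Ucp2, Acadvl and Acadl. The members were chosen with earlier results of these data known, so these shares describe the list and support nothing about it. The median distance from a member to the nearest summit was 13.7 kb in p53 replicate 1, 1.55 kb in replicate 2 and 12.1 kb in PPAR-alpha, where the medians over all genes were 164, 114 and 159 kb. The members were of usual length, with a median of 20.9 kb against 17.2 kb over all genes.

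The counts shrank as the assignment became stricter. Within 5 kb of a gene they were 4, 7 and 4 in p53 replicate 1, p53 replicate 2 and the PPAR-alpha list, against 14.6%, 18.3% and 14.3% of all genes. Both p53 lists had 4 of these (9.27%) and all 3 lists had 3 (6.05%), Cpt1a, Slc27a1 and Ucp2. Within 1 kb they were 4, 5 and 3, against 12.6%, 15.8% and 12.5%, with 3 in both p53 lists (7.67%) and 2 in all 3 (4.91%). Where a summit counted for its nearest gene only, 4, 4 and 3 members kept a summit in those lists, against 11.7%, 14.8% and 11.9% of all genes. In both p53 lists and in all 3 it was Cpt1a and Ucp2 (7.00% and 4.52% of all genes). Within 1 kb of an own start site there were 2, 2 and 1 of the 9 members with an entry, against 10.2%, 13.0% and 9.59% of the genes with one. These were Slc27a1 and Ucp2 in p53 replicate 1, Acadm and Acadvl in p53 replicate 2, and Slc27a1 in PPAR-alpha. No listed member start site had such a summit in both p53 lists or in all 3, as 5.72% and 3.21% of genes did. Crat has no listed start and could not count here. Its end beside Ptpa had a p53 summit in each replicate, at 30415826 and 30416051. Within 5 kb of an own start site the counts were 3, 4 and 3, against 12.0%, 15.2% and 11.3%, with Cpt1a and Ucp2 in both p53 lists (7.21%) and in all 3 (4.37%). The members called within 1 kb of a start thus differed between the p53 replicates, whereas within 5 kb both had Cpt1a and Ucp2. With 9 members, a count of 0 in both lists within 1 kb is near the 5.72% of all genes.

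**Figure D4:**
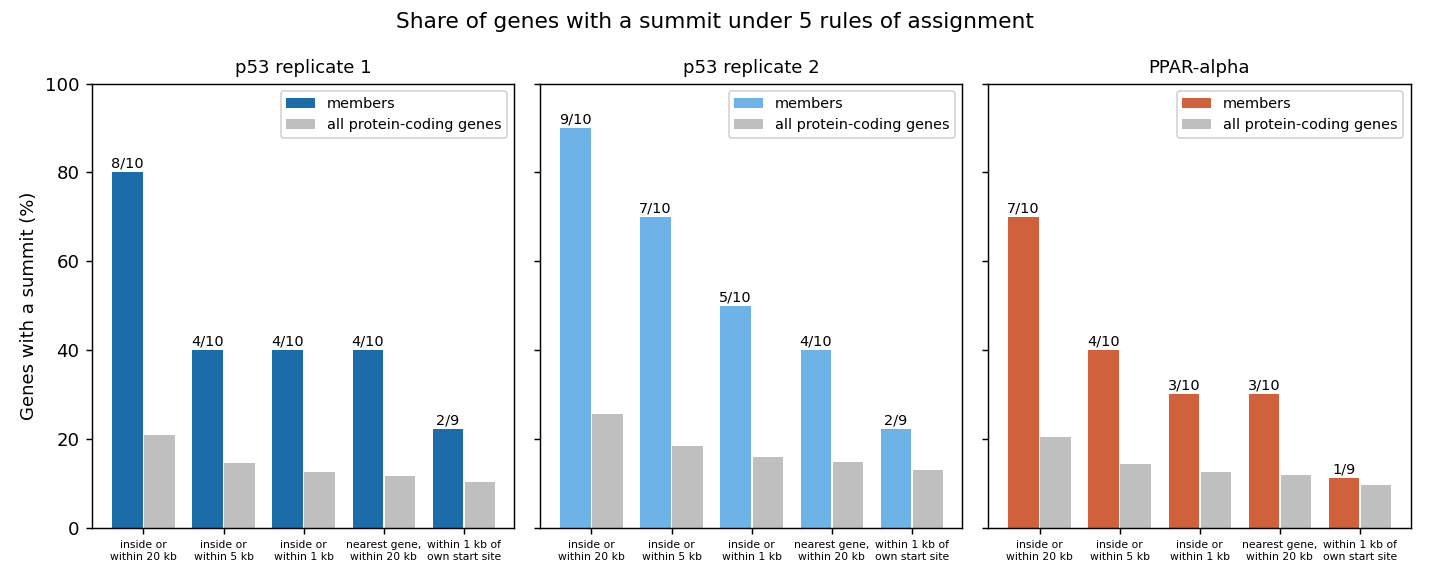
Share of genes with a summit, in percent, under 5 rules of assignment for each library; coloured bars are the members, with their number printed above, and grey bars all protein-coding genes (for the last rule, those with a start site in the promoter table). The members' bars fall from 8, 9 and 7 of 10 within 20 kb to 2, 2 and 1 of 9 at their own start sites.

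Agreement between lists was partial at the scale of single summits. Of the 11 p53 replicate 1 summits in the windows, 3 had a p53 replicate 2 summit within 100 bp, against 20.8% over the whole list. They were those in Cpt1a, in Ucp2 and before Pgls. None of the 11 had a PPAR-alpha summit within 100 bp, against 17.4%, although 5 had it within 500 bp. Among the 15 p53 replicate 2 summits, 3 had a PPAR-alpha summit within 100 bp, against 15.6%, which were those before Pgls, before Gabarap and beyond Mlycd. When summits with gaps of at most 500 bp were joined, 20 places resulted, of which 4 held all 3 lists, 7 held 2 and 9 held 1. The 4 were the start region of Cpt1a and the starts of Pgls, Gabarap and Kansl1l, so that 1 of them belonged to a member. Summits were not joined in this way over the whole lists, so no general share stands beside these counts.

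Window scores equalled the list median in p53 replicate 1, lay below it in p53 replicate 2 and above it in PPAR-alpha. The median score was 3.99 in p53 replicate 1, equal to 3.99 over its whole list, and 2.97 in p53 replicate 2, where the list had 3.62. In PPAR-alpha it was 6.55 against 4.70. A score of 10 or more was reached by 1, 0 and 2 of the window summits, where 5.38%, 4.30% and 16.0% of the lists reached it. The highest of a summit whose nearest gene was a member were 5.45 in p53 replicate 1 (Ucp2), 5.88 in p53 replicate 2 (Cpt1a) and 7.20 in PPAR-alpha (Slc27a1).

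Other genes of the same route were looked up from a list of 31, which covers further acyl-CoA synthetases, transporters, dehydrogenases, the later enzymes of beta-oxidation and their electron carriers. A summit inside or within 20 kb was found for 7 (22.6%) in p53 replicate 1, 8 (25.8%) in p53 replicate 2 and 12 (38.7%) in PPAR-alpha, beside the 20.8%, 25.7% and 20.4% of all protein-coding genes. These are not all separate places. The PPAR-alpha count holds Hadha and Hadhb through 1 shared summit, and each count holds Ucp3 through summits of the Ucp2 window. Over the 31 genes the median distance to the nearest summit was 133, 60.7 and 73.9 kb. No list had a summit for 16 of them, including Cpt1b, the muscle form of CPT1, Slc22a5, the carnitine transporter, Cd36, a fatty acid receptor, and Acads, the short-chain dehydrogenase.

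All 3 lists had a summit in the windows of Acsl5, Acad10, Eci1 and Ucp3. Those of Ucp3 were the summits of Ucp2 already described, since the genes are neighbours. At Acsl5, an acyl-CoA synthetase gene, the scores were 10.7 in p53 replicate 1, 4.33 in replicate 2 and 13.04 in PPAR-alpha, but the summits lay 19548 to 19622 bp away and nearest to Vti1a. Near Eci1, an enoyl-CoA isomerase gene, the scores were 6.24, 2.97 and 5.91, and the nearest gene was Rnps1, a splicing factor gene. In Acad10 the highest summit of p53 replicate 1 (4.70) was inside the gene, that of p53 replicate 2 (3.62) was 1292 bp outside it and nearest to Acad12, and that of PPAR-alpha (2.57) was 27 bp outside it and nearest to Brap. Hadh, which encodes a 3-hydroxyacyl-CoA dehydrogenase, had the highest p53 replicate 2 score of the list (5.08, at 131271776 of chromosome 3), inside the gene as was that of p53 replicate 1 (3.34, at 131271732). The highest PPAR-alpha scores stood in the windows of Cpt1c (47.7, nearest to Prmt1), Ucp3 (37.1) and Acsl1 (22.4, nearest to Cenpu). Decr1, a dienoyl-CoA reductase gene, had 4.33 in p53 replicate 2, with Nbn as the nearest gene. Other PPAR-alpha summits had the pathway gene itself as the nearest. They were inside Acsl3 (11.5), an acyl-CoA synthetase gene, 36 bp from Hadha (6.55), which encodes a subunit of the trifunctional protein, 147 bp from the transporter gene Slc27a4 (3.06) and 8761 bp from Eci2 (5.91), an isomerase gene.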

How the data were processed

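ChIP-seq summits of 2 p53 libraries and 1 PPAR-alpha library were used. The input library was not analysed here. Summits were deposited by the authors as 1 list per library. The form and range of the deposited score fit a −log10 p or q, and the labels do not name it. Per the submitters' processing notes, MACS2 2.1.2, Bowtie2 2.3.4.2 and Picard 2.9.0 were used, with no roles stated. Neither the threshold nor the control nor the read depth is given in the sources used here, so weak calls cannot be weighed against depth.

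Those notes name the human build GRCh38. The lists hold the 21 mouse chromosomes 1 to 19, X and Y. Within 1 kb of a GRCm38.p6 start site lay 51.3%, 49.8% and 43.6% of the summits of p53 replicate 1, p53 replicate 2 and PPAR-alpha. Moved by 50 kb either way, 4.19% to 4.50% did so. GRCm38 was therefore used for positions, which count from 1.

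Genes, start sites and sequences came from RefSeq tables without exons, so summits were not placed in exons or introns. Distances to start sites are signed along the gene. Python 3.11.15 with pandas 2.3.3 was used, and the window and sharing steps were checked on simulated data. No statistical test was run. The members, the list of 31 genes, the markers and the rules were chosen with earlier results of these data known. All members were named. Of the 31, genes with a summit in all 3 lists and the 3 highest-scoring in each were named. Cpt1b, Slc22a5, Cd36, Acads, Acsl3, Hadha, Hadhb, Slc27a4 and Eci2 were named after their values were seen. Alternatives changed the window, the score, the assignment, the sharing distance and the p53 replicates used. The counts at a member's own start site were added after seeing the data.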

Additional observations from a re-analysis of the deposited data

How the results depend on the processing

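Counts are given in the order p53 replicate 1, p53 replicate 2, PPAR-alpha, both p53 lists, all 3 lists. The counts within 20 kb were 8, 9, 7, 7 and 5. They became 4, 7, 4, 4 and 3 within 5 kb, 4, 5, 3, 3 and 2 within 1 kb, and 4, 4, 3, 2 and 2 when a summit counted for its nearest gene. With scores of at least 5 they were 3, 4, 5, 1 and 1, and with at least 10 they were 1, 0, 2, 0 and 0. Within 5 kb of an own start site they were 3, 4, 3, 2 and 2, and within 1 kb 2, 2, 1, 0 and 0. These last 2 settings leave out Crat, which has no listed start. Each of these settings counts fewer summits by construction. Without dense clusters the counts stayed within 1.5 times the reported ones, for all 8 results computed. Only 3 window summits lay in such clusters, all of PPAR-alpha at Ucp2, so the counts of p53 lists alone could not change. The count for PPAR-alpha became 6 and that for all 3 lists 4. Leaving out p53 replicate 1 or 2 turned the count for both p53 lists into that of the remaining replicate, 9 or 8. The count for all 3 lists became that of the remaining replicate with PPAR-alpha, 7 or 5. By construction neither count could fall.

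Summits of p53 replicate 1 shared with replicate 2 numbered 3. They became 8 within 500 bp and 0 within 50 bp, 1 at scores of 5 or more, 0 at 10 or more and 0 within 1 kb of an own start site. Those shared by p53 replicate 1 with PPAR-alpha went from 0 to 5 within 500 bp. Those shared by p53 replicate 2 with PPAR-alpha went from 3 to 7 within 500 bp. They fell to 1 at scores of 5 or more, and to 0 at scores of 10 or more, within 1 kb, with the nearest gene only, and within 1 or 5 kb of an own start site. No paired analysis was possible because PPAR-alpha has a single library and no test was run. Depth is unknown, so a list without a summit at a gene does not show that the factor was absent there.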
